A study of Mus musculus with 12 samples.

Results

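The mitochondrial genome of the mouse is a small circular chromosome with its own genes, and the transcripts of all of them were followed here in 12 bulk RNA-seq libraries. Members were all genes placed on chromosome MT in the 2 expression tables, 37 of the 54532 genes listed in each. Of these 37, 13 encode proteins, 2 encode ribosomal RNAs (rRNA) and 22 encode transfer RNAs (tRNA), and the 3 kinds are reported apart. Both strands of this genome are transcribed into long RNAs, from which the tRNAs are cut so that the messenger and ribosomal RNAs between them are released. The proteins are core subunits of respiratory complexes I, III and IV and of the ATP synthase, which are completed by many subunits encoded in the nucleus. The rRNAs and tRNAs serve the mitochondrial ribosome.

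The study removed ieCtnnb1, an intestinal enhancer of Ctnnb1, from the mouse germline with CRISPR/Cas9. Ctnnb1 encodes beta-catenin, the transcriptional effector of Wnt signaling. Wild type and ieCtnnb1KO small intestinal crypts gave 3 libraries each, and APCmin/+ and APCmin/+;ieCtnnb1KO colon tumors gave 3 each. Crypts were detached with EDTA, whereas tumors were taken as whole tissue without sorting. All animals were labelled adult and untreated, and the methods give a C57BL/6 background. Both tumor groups carry the mutant Apc allele, so tumors differ from crypts in organ and genotype as well as in disease. The paper gives an age in months for the mice of the sequenced tumors. It gives none for the crypts of bulk RNA-seq, so the tissues may differ in age too. The deletion is present in every cell of a knockout animal, so an effect outside the epithelium cannot be told apart from one within it. In bulk tissue, fewer cells of a type and less RNA per cell cannot be told apart.

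Levels are FPKM (fragments scaled to gene length and to the size of the library), with per-library values in the order of replicates 1, 2 and 3. Multiplied by gene length, the FPKM of each library were whole multiples of a single step, which returned the fragments behind every value, 14457896 to 16156712 per library. The target gene was read before any member. In crypts, Ctnnb1 was at 121, 134 and 123 FPKM in Wild type and at 102, 104 and 105 FPKM in ieCtnnb1KO libraries. All 3 ieCtnnb1KO values lay below all Wild type values, with a log2 fold change of -0.28 (standard error 0.12; limma, unadjusted p 0.0510, adjusted p 0.849 after Benjamini-Hochberg). In tumors, Ctnnb1 was at 299, 363 and 358 FPKM in APCmin/+ and at 279, 248 and 250.2 FPKM in APCmin/+;ieCtnnb1KO libraries. The groups did not overlap here either, and the log2 fold change was -0.39 (standard error 0.13; limma, unadjusted p 0.0204, adjusted p 0.303). Tissue labels could be read from markers as well. Of 6 smooth muscle markers 5 were under 0.5 FPKM in every crypt library, and Aqp8, Car1 and Hoxb13 of the colon epithelium were too. In tumors Hoxb13 averaged 96.9 FPKM, while the enterocyte markers Alpi, Apoa4, Fabp1, Lct and Sis were under 0.5 FPKM in every library.

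Knockout and control were compared in each tissue with limma on log2(FPKM + 0.5), on 14176 genes in crypts and 16743 in tumors. At a Benjamini-Hochberg adjusted p under 0.05, limma called 0 genes (0%) in crypts and 0 (0%) in tumors, so no member that passed the filter on low FPKM (mean of at least 0.5) was called in either tissue. At an unadjusted p under 0.05 there were 829 genes in crypts (5.85%), 494 higher (3.48%) and 335 lower (2.36%) in ieCtnnb1KO. Tumors had 2421 such genes (14.5%), 1417 higher (8.46%) and 1004 lower (6.0%). Genes whose knockout values all lay above all control values made up 6.79% in crypts and 11.4% in tumors, and those entirely below made up 5.15% and 10.6%. The lowest adjusted p in limma was 0.728 in crypts and 0.269 in tumors. Voom on the recovered fragments also called 0 genes in both tissues, with 805 and 2541 at an unadjusted p under 0.05. Without the filter on low FPKM limma called 14 genes in crypts and 27 in tumors, without Wild type replicate 3 it called 3 in crypts and without the variance trend 1 in tumors, and no member that passed the filter was among them. Among the 14 was mt-Tk, the lysine tRNA, at 0, 0 and 0 fragments in Wild type and 1, 1 and 1 in ieCtnnb1KO crypts. Its log2 fold change of 1.57 (limma adjusted p 0.0235 without the filter) rests on 3 fragments in all and on the added 0.5 FPKM. In that fit the standard error was 1.8e-16 for mt-Tf and 386505 for mt-Co1, so no conclusion is drawn from its calls. Every direction below is therefore that of a mean, and no member passed the test with the filter. Of the 37 members, 33 were tested in crypts (13 coding, 2 rRNA, 18 tRNA) and 25 in tumors (13 coding, 2 rRNA, 10 tRNA).

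A stretch of the mitochondrial genome is also present in the nucleus, and this limits what can be said about part of the coding genes. Pseudogenes on chr1:24611535-24616197 (minus strand, GRCm38) mirror bases 6390 to 11042 of chromosome MT, from within mt-Co1 to within mt-Nd4. The reference transcripts of Gm28661, Gm10925, Gm28437 and Gm10222 matched mt-Co2 (681 of 681 bases), mt-Atp6 (678 of 678), mt-Co3 (783 of 783) and mt-Nd4l (294 of 294) without any difference. Gm28438 differed from mt-Nd3 at 1 base, with 344 of 345 bases identical. Gm29216 matched 482 of 483 bases of mt-Co1, the single difference being A1066T counted from the first base of mt-Co1, and Gm28439 matched 876 of 876 bases of mt-Nd4. These last 2 copies cover only 31.2% of mt-Co1 and 63.6% of mt-Nd4. mt-Atp8 lies between mt-Co2 and mt-Atp6, whose starts are 914 bases apart in both genomes. Its last 43 bases are also the first of mt-Atp6, and Gm10925 matches these without any difference. The nuclear stretch at the place of its other bases has no gene entry and could not be read here. Coding genes were thus split by this stretch into 5 outside it (mt-Nd1, mt-Nd2, mt-Nd5, mt-Nd6 and mt-Cytb), 2 copied in part (mt-Co1 and mt-Nd4) and 6 lying wholly within it (mt-Co2, mt-Atp8, mt-Atp6, mt-Co3, mt-Nd3 and mt-Nd4l), called wholly copied below. Apart from the 43 bases shared with mt-Atp6, mt-Atp8 is placed there by position only. Of its 105 windows of 100 bases 0 were shared with a reference transcript of another chromosome, and a match of 43 bases is too short to fill one. The tRNA genes mt-Ts1, mt-Td, mt-Tk, mt-Tg and mt-Tr also lie wholly within it. Windows of 100 bases were shared with pseudogenes on chromosome 2 as well: 80 of mt-Co1 with Gm13340, 88 of mt-Co2 with Gm13341 and 30 of the 939 of mt-Nd2 with Gm13339, so mt-Nd2 is not free of copied sequence. How fragments with several equal matches were counted is not given in the sources used here, and neither is the use of strand. The first bases of mt-Co2 (MT:7013-7072, plus strand) and Gm28661 (chr1:24615506-24615565, minus strand) from the reference transcripts show that a fragment from either gene has the same sequence.
mt-Co2: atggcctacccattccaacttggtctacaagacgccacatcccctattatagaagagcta
Gm28661: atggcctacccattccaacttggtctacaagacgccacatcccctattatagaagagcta
The first bases of mt-Nd3 (MT:9459-9518, plus strand) and Gm28438 (chr1:24613060-24613119, minus strand) hold the only base that separates that pair, T3C, in capitals.
mt-Nd3: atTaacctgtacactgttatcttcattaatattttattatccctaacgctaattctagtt
Gm28438: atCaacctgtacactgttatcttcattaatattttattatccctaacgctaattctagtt
The edges of the copied stretch are shown in mt-Co1 (MT:6350-6429, plus strand) and mt-Nd4 (MT:11003-11082, plus strand), where capitals mark bases aligned to the nuclear copy, identical to it except for A1066T.
mt-Co1: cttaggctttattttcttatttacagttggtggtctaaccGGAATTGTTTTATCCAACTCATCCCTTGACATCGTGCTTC
mt-Nd4: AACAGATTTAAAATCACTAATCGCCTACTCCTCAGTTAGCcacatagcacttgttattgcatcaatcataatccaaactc

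Some members also share bases with each other, because the mitochondrial genome has little space between genes. There were 9 overlapping pairs, the longest being mt-Atp8 and mt-Atp6, which share 43 bases on the same strand. The whole of mt-Atp8 (MT:7766-7969, plus strand) is shown because its values are taken up below, with the bases it shares with mt-Atp6 in capitals.
mt-Atp8: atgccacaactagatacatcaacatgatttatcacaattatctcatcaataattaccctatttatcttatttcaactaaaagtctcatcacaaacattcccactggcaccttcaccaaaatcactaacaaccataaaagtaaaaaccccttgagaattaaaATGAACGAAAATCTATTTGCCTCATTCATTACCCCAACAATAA
mt-Nd5 and mt-Nd6 overlap by 14 bases on opposite strands. Of the 37 genes 28 lie on the plus strand and 9 on the minus strand, mt-Nd6 and 8 tRNA genes.

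In crypts, the 13 coding genes held 13.3%, 18.4% and 14.7% of all fragments in Wild type and 11.3%, 10.5% and 14.5% in ieCtnnb1KO libraries. The means were 15.5% ± 2.64 and 12.1% ± 2.13 (SD, n = 3 each), a difference of -3.37 percentage points. Wild type replicate 2 was the highest library and ieCtnnb1KO replicate 3 lay above Wild type replicate 1, so the groups overlapped. Without Wild type replicate 2 the difference was -1.90, and over the 5 genes outside the copied stretch it was -1.51. In tumors the coding share was 1.67%, 2.24% and 1.996% in APCmin/+ and 1.53%, 1.73% and 1.41% in APCmin/+;ieCtnnb1KO libraries. The means were 1.97% ± 0.288 and 1.56% ± 0.161 (SD, n = 3 each), a difference of -0.412, with APCmin/+ replicate 1 inside the range of the knockouts. Taken as a share of summed FPKM, without gene length, the tumor difference was -1.14, and over the 5 genes outside the copied stretch it was -0.146. The widest 95% Clopper-Pearson interval of a coding share was 0.0379 percentage points in crypts and 0.0145 in tumors, and such intervals cover counting error only. The crypt and tumor tables were normalized separately, and their shares are set side by side without a test.

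**Figure D1:**
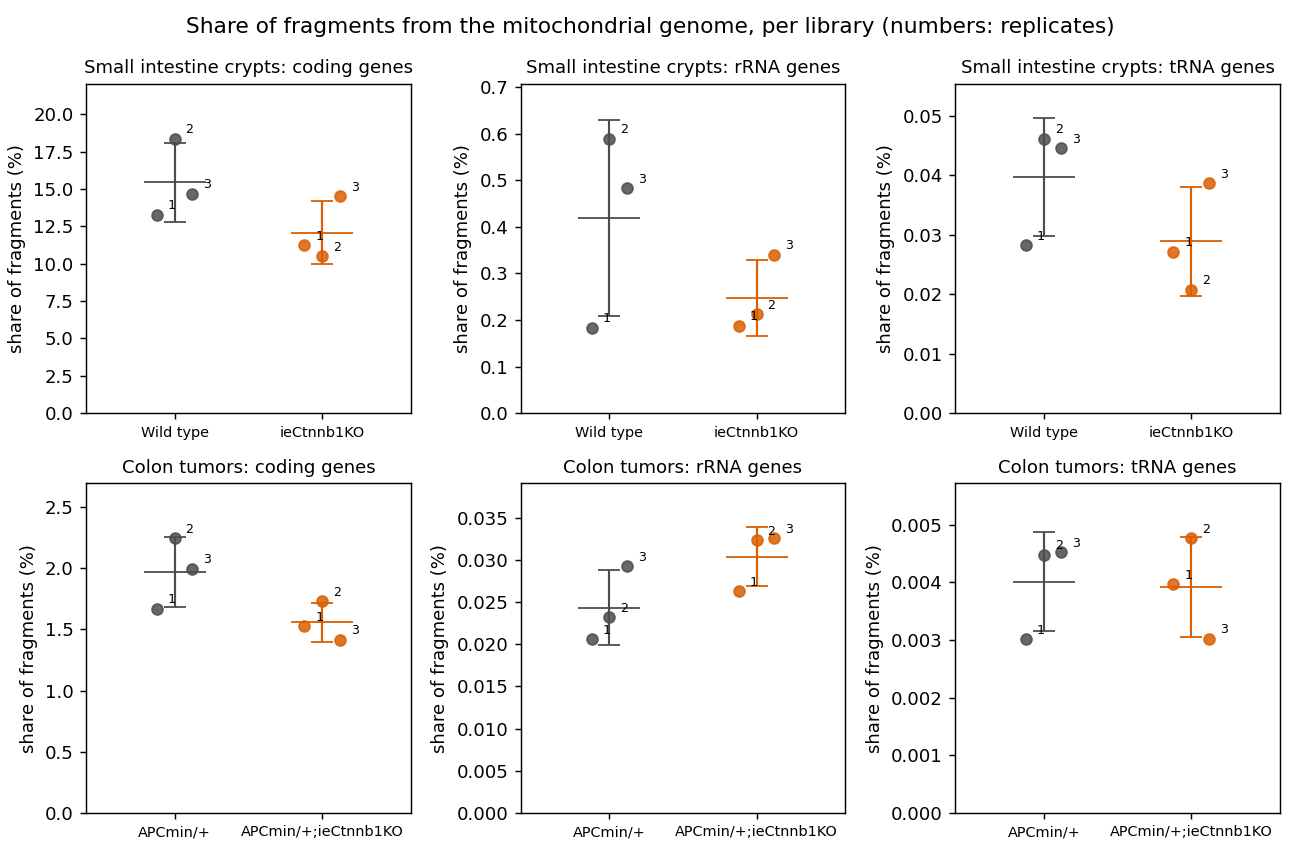
Share of all fragments (percent, y axis) held by mitochondrial coding, rRNA and tRNA genes in each library, by group and tissue. Crypt coding shares run from 10.5% to 18.4% and tumor coding shares from 1.41% to 2.24%, with overlapping groups in both.

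Almost all of the coding share came from genes outside the copied stretch or only partly within it. In crypts the genes outside it held 5.89%, 7.88% and 6.32% of fragments in Wild type and 4.80%, 4.53% and 6.22% in ieCtnnb1KO libraries. The part-copied mt-Co1 and mt-Nd4 together held 6.96%, 9.54% and 8.21% against 6.17%, 5.72% and 7.79%. The 6 wholly copied genes held 0.423%, 0.969% and 0.174% against 0.300%, 0.246% and 0.508%. In all 3 sets the groups overlapped. The spread among controls was widest in the wholly copied set, where the highest library was 5.58 times the lowest, against 1.34 times for genes outside the stretch. In tumors the latter held 0.776%, 0.963% and 0.907% in APCmin/+ and 0.743%, 0.812% and 0.655% in APCmin/+;ieCtnnb1KO libraries. The wholly copied genes of tumors held 0.00871%, 0.0155% and 0.00840% against 0.0123%, 0.0156% and 0.0112%, again with overlap.

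Coding transcripts covered a wide range of levels. In crypts mt-Co1, the catalytic subunit of complex IV, averaged 41374 FPKM over the 6 libraries, followed by mt-Cytb of complex III at 23880.0 and mt-Nd1 of complex I at 13739. The complex I subunits mt-Nd4 (7359), mt-Nd2 (6887), mt-Nd6 (6697) and mt-Nd5 (4563) came next. The wholly copied genes were all below these: mt-Co2 of complex IV (2399.5), mt-Atp6 of the ATP synthase (1869), mt-Co3 of complex IV (1751), mt-Nd4l (262) and mt-Nd3 (99.5) of complex I, and mt-Atp8 of the ATP synthase (24.7). In tumors mt-Co1 (5252), mt-Cytb (2796) and mt-Nd1 (1989.8) were again the 3 highest, and mt-Nd5, mt-Nd4, mt-Nd2 and mt-Nd6 lay between 927 and 779 FPKM. The wholly copied genes were far lower in tumors, from mt-Co2 at 73.2 FPKM through mt-Atp6 (51.4), mt-Co3 (36.5), mt-Nd4l (11.5) and mt-Nd3 (3.46) down to mt-Atp8 (3.24). The step between the sets was crossed by no library: mt-Nd5 exceeded mt-Co2 in 6 of 6 crypt libraries (ratio of means 1.90) and mt-Nd6 exceeded mt-Co2 in 6 of 6 tumor libraries (10.6). Some neighbours in this order did not differ, as mt-Nd2 was above mt-Nd6 in 3 of 6 crypt libraries and mt-Atp6 above mt-Co3 in 2 of 6. Whether fragments given to the copies or set aside lower these values was not tested.

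**Figure D2:**
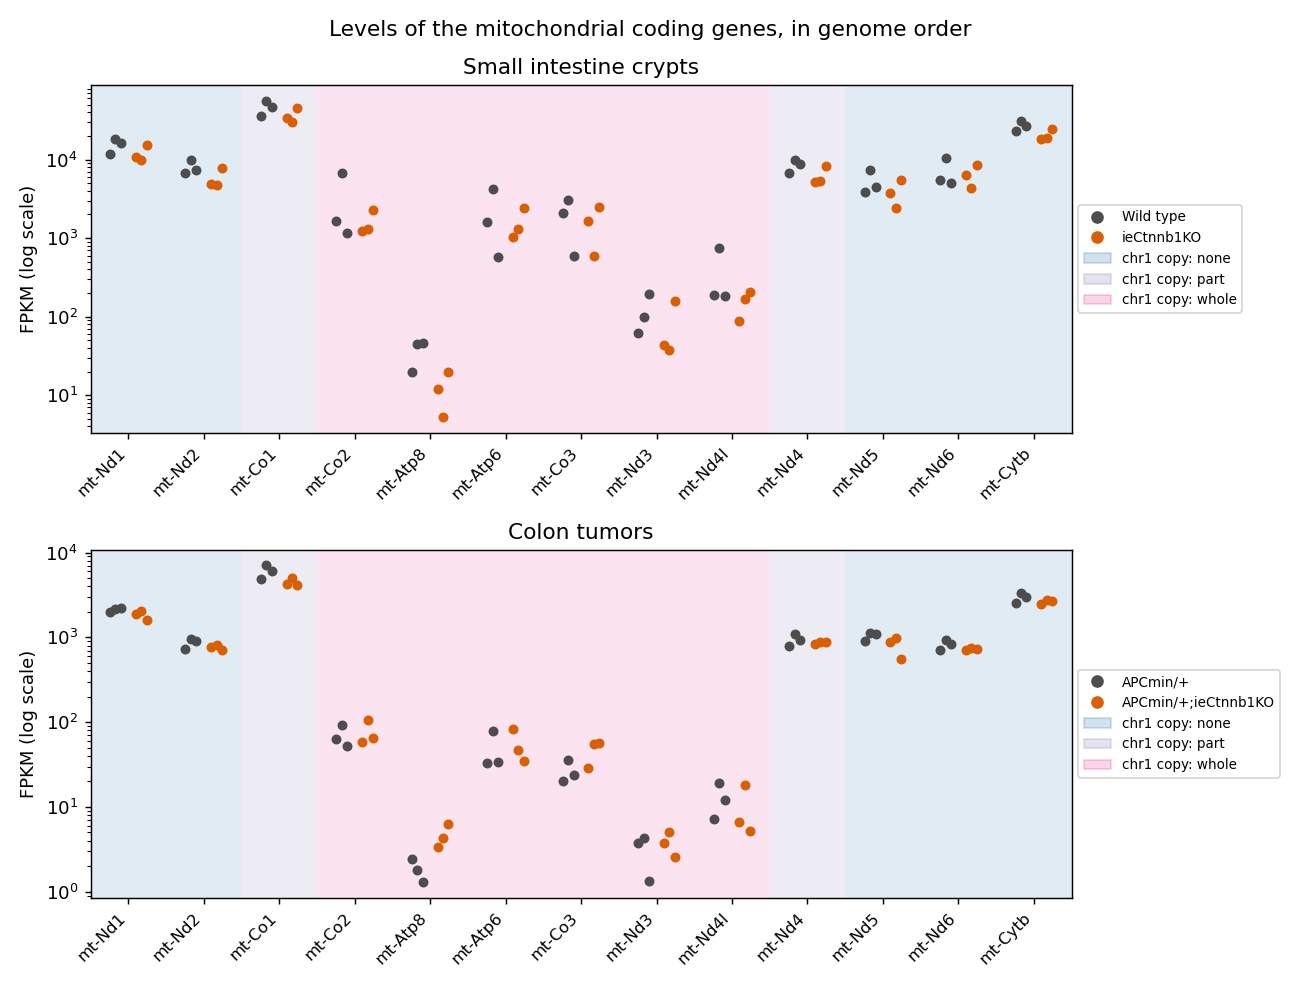
FPKM of the 13 coding genes in each library (log scale), by copy class, group and tissue. Within each library the wholly copied genes lie below all others, with means from mt-Co2 (2399.5 FPKM in crypts, 73.2 in tumors) to mt-Atp8 (24.7 and 3.24).

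In crypts all 13 coding genes had a lower mean of log2 values in ieCtnnb1KO than in Wild type, with a median log2 fold change of -0.43 that became 0 under quantile normalization, where 5 of 13 remained lower. Quantile normalization gives all libraries the same set of values, so a gene of the same top rank in each, such as mt-Co1, is at 0 by construction. Under the 3 rescalings by totals all 13 remained lower, with medians of -0.41, -0.47 and -0.49. The range was -1.63 to -0.10, and 1 of 13 had an unadjusted p under 0.05 in limma, against 5.85% of all genes. Leaving out single libraries moved the median between -0.66 (without ieCtnnb1KO replicate 3) and -0.24 (without Wild type replicate 2). The genes outside the copied stretch had a median of -0.41, which was 0.21 under quantile normalization. The median of all tested genes was 0.01 in both tissues. With 0 of 13 called by limma, a lower level of the coding transcripts in ieCtnnb1KO crypts is not established.

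Among genes outside the copied stretch, mt-Cytb in crypts was at 23452, 31383 and 26902 FPKM in Wild type and 18282, 18941 and 24319.7 FPKM in ieCtnnb1KO libraries. Only ieCtnnb1KO replicate 3 exceeded a Wild type value, and the log2 fold change was -0.41 (standard error 0.41, limma adjusted p 0.916). The SDs of log2 values of mt-Cytb were 0.21 in Wild type and 0.22 in ieCtnnb1KO, and those of mt-Co1 0.32 and 0.30. Limma draws each variance toward a trend over the level of all genes. For these abundant genes the standard errors and p-values are therefore wider than their own spread gives. Without the variance trend limma called 0 of 33 tested members in crypts. mt-Nd1 was at 11894, 18421 and 16276 FPKM against 10814, 9893 and 15139.5 FPKM, with ieCtnnb1KO replicate 3 above Wild type replicate 1 (log2 fold change -0.38, limma adjusted p 0.917). mt-Nd2 was at 6748, 9734 and 7360.4 FPKM against 4828, 4799 and 7850.3 FPKM, where the same knockout library lay above the other two and above 2 of the 3 controls (-0.47, limma adjusted p 0.896). mt-Nd5 was at 3831, 7402 and 4463 FPKM against 3703, 2412 and 5566 FPKM, with overlap (-0.45, limma adjusted p 0.909). Under quantile normalization the fold changes of mt-Cytb (0.23), mt-Nd1 (0.21) and mt-Nd2 (0.14) were positive and that of mt-Nd5 was 0. With 1 library left out mt-Cytb ran from -0.54 to -0.30, mt-Nd1 from -0.56 to -0.24, mt-Nd2 from -0.71 to -0.31 and mt-Nd5 from -0.75 to -0.15.

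mt-Nd6, the single protein gene on the minus strand, was at 5452, 10567 and 5082 FPKM in Wild type crypts and 6309, 4331 and 8441 FPKM in ieCtnnb1KO crypts. Wild type replicate 2 was the highest and the remaining values were mixed (-0.11, limma adjusted p 0.985), and the sign turned to 0.22 without that library. The ratio of mt-Nd6 to mt-Nd5, which are neighbours on opposite strands, was 1.42, 1.43 and 1.14 in Wild type and 1.70, 1.80 and 1.52 in ieCtnnb1KO crypts. These ratios averaged 1.33 ± 0.166 and 1.67 ± 0.142 (SD, n = 3 each) without overlap, and the difference was not tested. It was the only 1 of 18 ratios examined in crypts whose groups did not overlap, while 6.79% of all genes lay higher without overlap and 5.15% lower. Those shares are of single genes and are no background for ratios. In tumors the ratio was 0.786, 0.828 and 0.771 in APCmin/+ against 0.804, 0.764 and 1.28 in APCmin/+;ieCtnnb1KO, with overlap. Because strand use in counting is unknown, fragments of either gene and antisense fragments from the same place cannot be told apart.

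The part-copied mt-Co1 was at 36036, 56119.7 and 46749 FPKM in Wild type crypts and 33843, 30180.0 and 45318 FPKM in ieCtnnb1KO crypts. ieCtnnb1KO replicate 3 lay within the Wild type range and the other two below it (log2 fold change -0.34, standard error 0.50, limma adjusted p 0.942). mt-Nd4 was at 6792, 9747 and 8716 FPKM against 5255, 5377 and 8266 FPKM, with the same arrangement of libraries (-0.43, limma adjusted p 0.901; 0.07 under quantile normalization). With 1 library left out mt-Co1 ran from -0.51 to -0.19 and mt-Nd4 from -0.65 to -0.32.

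The wholly copied genes scattered widely between crypt libraries. mt-Co2 was at 1652, 6711 and 1157 FPKM in Wild type and 1247, 1319 and 2310.4 FPKM in ieCtnnb1KO crypts. Its fold change of -0.59 (limma adjusted p 0.922) rested on Wild type replicate 2 and was 0.17 without it. mt-Atp6 was at 1612, 4269 and 579.7 FPKM against 1029, 1314 and 2411 FPKM, with the same Wild type library highest (-0.10, limma adjusted p 0.995; 0.62 without it). mt-Co3 was at 2093, 3072 and 590.3 FPKM against 1661, 585 and 2506 FPKM, the lowest value of each group being alike (-0.21, limma adjusted p 0.984), and the sign turned without Wild type replicate 2 (0.28) or ieCtnnb1KO replicate 2 (0.39). mt-Nd4l was at 188, 738 and 186 FPKM against 87.3, 168 and 206 FPKM, with Wild type replicate 2 again apart (-1.03, limma adjusted p 0.881; -0.37 without it). mt-Nd3 was at 62.2, 99.8 and 196 FPKM against 43.1, 37.9 and 158 FPKM, with replicate 3 highest in both groups (-0.74, limma adjusted p 0.907; from -1.39 without ieCtnnb1KO replicate 3 to -0.30 without Wild type replicate 3). In the controls the SD of log2 values was 0.68 to 1.44 for wholly copied genes and 0.21 to 0.58 for genes outside the stretch, while in the knockouts these ranges overlapped (0.49 to 1.13 and 0.22 to 0.60).

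mt-Atp8 was the only coding gene in crypts with an unadjusted p under 0.05. It was at 19.9, 44.9 and 46.3 FPKM in Wild type and 12.0, 5.27 and 19.9 FPKM in ieCtnnb1KO crypts, from 63, 140 and 148 fragments against 40, 18 and 57. The means were 37.0 ± 14.8 and 12.4 ± 7.32 FPKM (SD, n = 3 each), and the groups just failed to touch, at Wild type replicate 1 and ieCtnnb1KO replicate 3. The log2 fold change was -1.63 (standard error 0.51; limma, unadjusted p 0.0149, adjusted p 0.797). The gene is short, overlaps mt-Atp6 and lies in the copied stretch, so its value is uncertain.

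In tumors 8 of 13 coding genes had a negative log2 fold change and 5 a positive one, with a median of -0.15 (-0.02 under quantile normalization), and 2 of 13 had an unadjusted p under 0.05 in limma, against 14.5% of all genes. Leaving out single libraries moved the median between -0.25 (without APCmin/+ replicate 1) and -0.06 (without APCmin/+ replicate 2). By class, all 5 genes outside the copied stretch were negative (median -0.18), though mt-Cytb turned to 0.09 under quantile normalization, the 2 part-copied genes were negative (median -0.25) and 5 of 6 wholly copied genes were positive (median 0.26, but -0.02 without APCmin/+ replicate 3). The most negative coding gene, mt-Nd4l, was wholly copied, and the classes were not compared by a test.

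mt-Cytb in tumors was at 2556, 3319 and 2961 FPKM in APCmin/+ and 2496, 2754 and 2691 FPKM in APCmin/+;ieCtnnb1KO libraries. APCmin/+ replicate 1 lay among the knockouts and the other two above them (log2 fold change -0.15, standard error 0.25, limma adjusted p 0.799). Here too the standard error was wider than the gene's own spread, with SDs of log2 values of 0.19 in APCmin/+ and 0.07 in APCmin/+;ieCtnnb1KO. Without the variance trend limma called 0 of 25 tested members in tumors. mt-Nd1 was at 2019, 2170.3 and 2220.2 FPKM against 1869, 2054 and 1605 FPKM, and 1 knockout library exceeded 1 control (-0.22, limma adjusted p 0.648). mt-Nd2 was at 735, 949 and 916 FPKM against 773, 805 and 702 FPKM, with APCmin/+ replicate 1 within the knockouts (-0.18, limma adjusted p 0.627). mt-Nd5 was at 898, 1139.7 and 1090.1 FPKM against 894, 976 and 563 FPKM, with overlap and the lowest value in APCmin/+;ieCtnnb1KO replicate 3 (-0.39, limma adjusted p 0.484). mt-Nd6 was at 706, 943 and 840.4 FPKM against 719, 746 and 720.2 FPKM, with APCmin/+ replicate 1 below all knockouts and the other two above them (-0.18, limma adjusted p 0.626). With 1 library left out these ran from -0.25 to -0.06 for mt-Cytb, -0.30 to -0.12 for mt-Nd1, -0.30 to -0.11 for mt-Nd2, -0.55 to -0.15 for mt-Nd5 and -0.29 to -0.08 for mt-Nd6, and under quantile normalization mt-Nd1 (-0.41), mt-Nd2 (-0.31) and mt-Nd6 (-0.29) were more negative.

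mt-Co1 in tumors was at 4912, 7044 and 6022 FPKM in APCmin/+ and 4274, 5067 and 4196 FPKM in APCmin/+;ieCtnnb1KO libraries. Only APCmin/+ replicate 1 fell within the range of the knockouts (log2 fold change -0.40, standard error 0.33, limma adjusted p 0.587; 0 under quantile normalization, by construction). mt-Nd4 was at 795, 1100.0 and 926 FPKM against 831, 884 and 890.3 FPKM, with controls on both sides of the knockouts (-0.10, limma adjusted p 0.806; 0.02 without APCmin/+ replicate 2, -0.31 under quantile normalization). As a part of all coding fragments, mt-Co1 made up 46.3%, 49.5% and 47.6% in APCmin/+ and 43.1%, 45.2% and 44.5% in APCmin/+;ieCtnnb1KO tumors, without overlap (means 47.8% ± 1.62 and 44.3% ± 1.07, SD, n = 3 each, not tested). This part was among the 8 of 18 ratios examined in tumors whose groups did not overlap, 6 higher and 2 lower. Of single genes 11.4% lay higher and 10.6% lower without overlap, but these shares are no background for ratios. Many of the 8 ratios contain mt-Co1 or the coding total, of which mt-Co1 is a large part. They are therefore not independent of each other and partly repeat the same difference. The wholly copied genes, whose share of all fragments overlapped, made up 0.521%, 0.692% and 0.421% of coding fragments in APCmin/+ against 0.803%, 0.898% and 0.795% in APCmin/+;ieCtnnb1KO tumors, higher without overlap. The ratios of mt-Co2, mt-Co3 and Gm29216 to mt-Co1 and of mt-Rnr2 to mt-Rnr1 were likewise higher, and the other two are given below. In crypts mt-Co1 made up 44.9% to 48.1% of coding fragments and the wholly copied genes 1.18% to 5.27%, both with overlap.

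Among the wholly copied genes in tumors, mt-Co3 was at 20.01, 35.6 and 23.7 FPKM in APCmin/+ and 28.5, 55.2 and 56.2 FPKM in APCmin/+;ieCtnnb1KO libraries. APCmin/+ replicate 2 exceeded the lowest knockout, and the log2 fold change was 0.78 (standard error 0.32; limma, unadjusted p 0.0441, adjusted p 0.339). mt-Co2 was at 63.4, 92.9 and 53.1 FPKM against 58.8, 106 and 65.2 FPKM, with overlap (0.13, limma adjusted p 0.856), and was negative without APCmin/+ replicate 3 (-0.05), without knockout replicate 2 (-0.13) or under quantile normalization (-0.02). mt-Atp6 was at 33.0, 77.7 and 33.8 FPKM against 82.9, 46.6 and 34.6 FPKM, each group having 1 high library (0.21, limma adjusted p 0.841; -0.14 without APCmin/+;ieCtnnb1KO replicate 1). mt-Nd4l was at 7.28, 19.4 and 12.2 FPKM against 6.70, 18.3 and 5.18 FPKM, with overlap (-0.45, limma adjusted p 0.695; from -0.97 without knockout replicate 2 to -0.11 without knockout replicate 3). mt-Nd3 was at 3.73, 4.35 and 1.35 FPKM against 3.75, 5.02 and 2.58 FPKM, with overlap (0.31, limma adjusted p 0.730; -0.12 without APCmin/+ replicate 3).

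mt-Atp8 in tumors was at 2.42, 1.78 and 1.31 FPKM in APCmin/+ and 3.35, 4.28 and 6.29 FPKM in APCmin/+;ieCtnnb1KO libraries, from 8, 6 and 4 fragments against 11, 14 and 20. All 3 knockouts lay above all controls (means 1.84 ± 0.558 and 4.64 ± 1.501 FPKM, SD, n = 3 each). The log2 fold change was 1.12 (standard error 0.26; limma, unadjusted p 0.00404, adjusted p 0.269). The gene thus lay wholly below its controls in knockout crypts and wholly above them in knockout tumors, on few fragments in tumors, and the difference between the tissues was not tested.

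**Figure D3:**
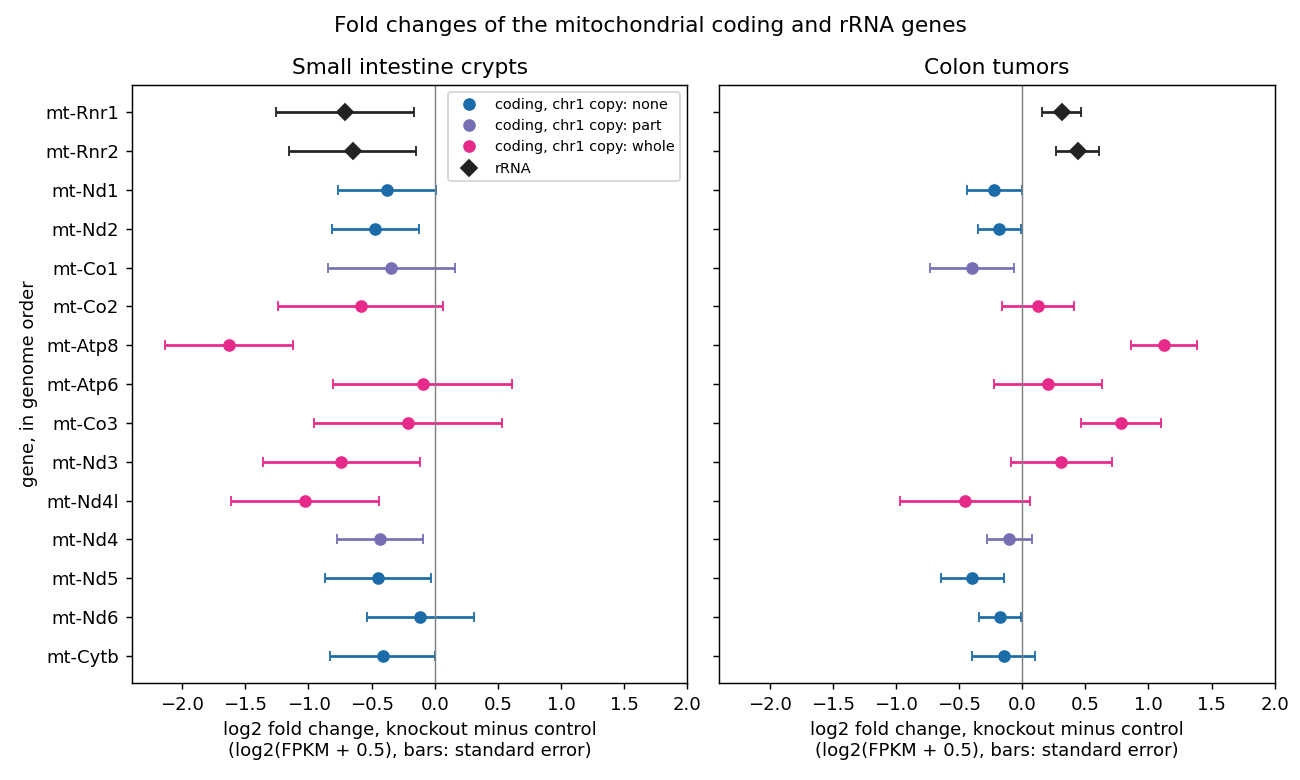
Log2 fold change (knockout over control, x axis) of each coding and rRNA gene with its standard error, in crypts and tumors. mt-Atp8 is the lowest coding gene in crypts (-1.63) and the highest in tumors (1.12).

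The nuclear copies themselves were counted at levels near those of the wholly copied genes, apart from Gm28438, which lay above mt-Nd3. In crypts Gm28661 was at 1962, 1560.1 and 790.3 FPKM in Wild type and 918, 1042 and 1949 FPKM in ieCtnnb1KO libraries, between 0.232 and 1.19 times the mt-Co2 value of the same library. In tumors it was at 44.9, 107 and 35.4 FPKM against 40.9, 102 and 58.9 FPKM, between 0.668 and 1.15 times mt-Co2. The ratio of Gm10925 to mt-Atp6 was 0.466 to 0.887 in crypts and 0.459 to 1.30 in tumors. For Gm10222 and mt-Nd4l it was 0.284 to 1.19 and 0.973 to 2.10. Gm28438 exceeded mt-Nd3 in every library, by 1.72 to 8.19 times in crypts and 8.11 to 26.4 times in tumors. Against the part-copied genes the copies were small, with Gm29216 at 0.00251 to 0.0316 times mt-Co1 over both tissues. Gm28437 was at 0.784, 0.780 and 0.796 times mt-Co3 in APCmin/+ and 0.534, 0.649 and 0.328 times in APCmin/+;ieCtnnb1KO tumors, without overlap. In crypts this ratio was 0.360, 0.271 and 1.36 in Wild type against 0.300, 0.881 and 0.521 in ieCtnnb1KO, with overlap, and neither was tested. A copy of the same sequence cannot be told apart from the gene, and a transcript of the nuclear stretch was not shown by these values.

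**Figure D4:**
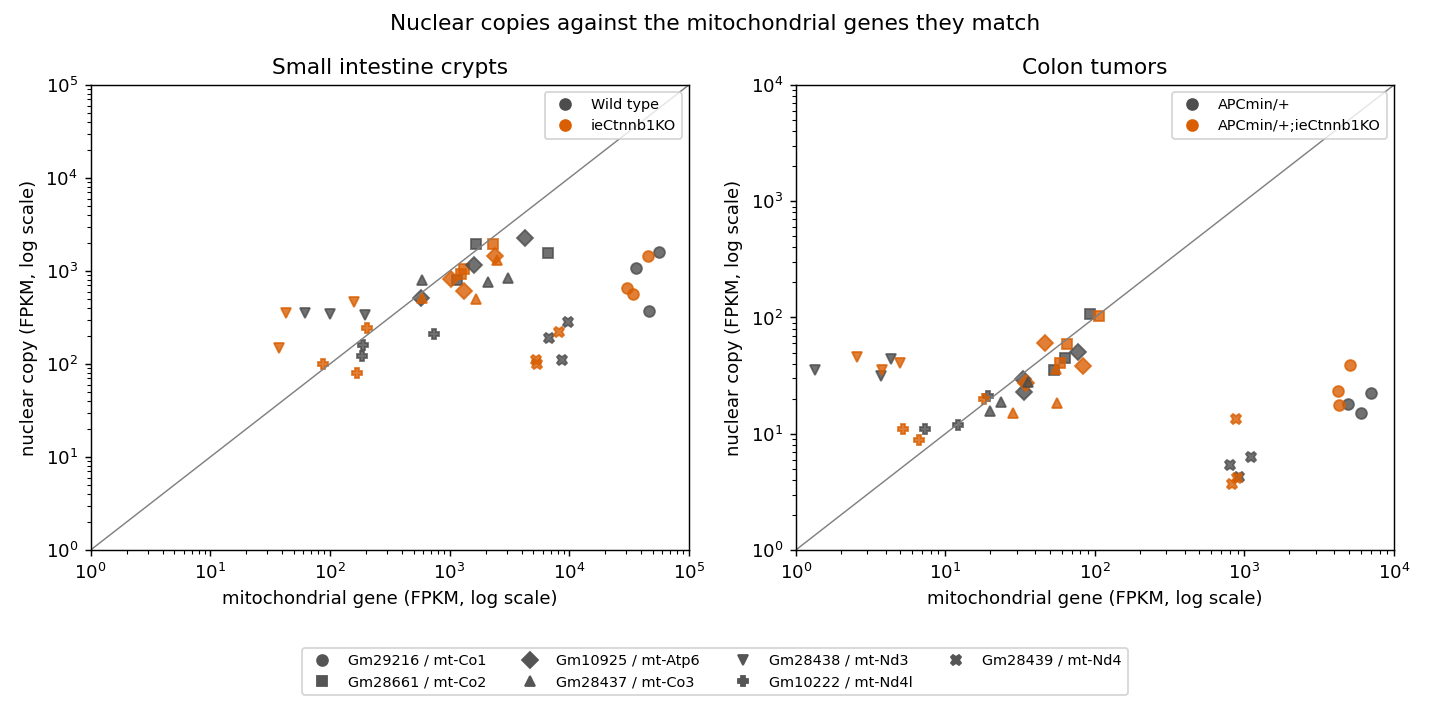
FPKM of each nuclear copy (y axis) against its mitochondrial gene (x axis) in each library, log scales, by tissue and group. Copies lie far below mt-Co1 and mt-Nd4 and near the wholly copied genes (Gm28661 at 0.232 to 1.19 times mt-Co2 in crypts), except Gm28438, at 1.72 to 8.19 times mt-Nd3 in crypts.

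All 7 copies had a negative log2 fold change in ieCtnnb1KO crypts (median -0.25), although Gm29216 (-0.09), Gm28661 (-0.13), Gm10925 (-0.30), Gm28437 (-0.19) and Gm28438 (-0.25) each turned positive when 1 library was left out. Gm10222 (-0.35) and Gm28439 (-0.42) stayed negative but came to -0.03 without ieCtnnb1KO replicate 2 and -0.10 without Wild type replicate 2. In tumors 6 of 7 were positive (median 0.17), but the median was -0.18 without APCmin/+;ieCtnnb1KO replicate 2. That library had the highest tumor value of Gm29216 (39.3 FPKM), Gm10925 (60.6), Gm28437 (35.8) and Gm28439 (13.5). Together the copies held 0.383%, 0.425% and 0.190% of fragments in Wild type and 0.217%, 0.213% and 0.427% in ieCtnnb1KO crypts. In tumors they held 0.00922%, 0.0170% and 0.00829% against 0.00919%, 0.0190% and 0.0104%, with overlap in both tissues. Of the chromosome 2 pseudogenes in crypts, Gm13340 was at 62.5, 125 and 18.3 FPKM in Wild type and 51.7, 44.1 and 108 FPKM in ieCtnnb1KO libraries. Gm13341 was at 8.46, 23.6 and 1.04 FPKM against 2.47, 3.64 and 15.7 FPKM. Gm13339 was at 5.32, 10.3 and 3.13 FPKM against 1.45, 3.39 and 7.26 FPKM. The groups overlapped for all 3.

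The 2 rRNAs are the structural RNAs of the mitochondrial ribosome, mt-Rnr1 of its small and mt-Rnr2 of its large subunit. Their share in crypts was 0.183%, 0.589% and 0.482% in Wild type and 0.188%, 0.212% and 0.340% in ieCtnnb1KO libraries, with Wild type replicate 1 below all knockouts and the other two above them. The difference of the means was -0.172 percentage points, and it was -0.0865 without Wild type replicate 2 and -0.289 without Wild type replicate 1. mt-Rnr1 was at 639, 2314 and 2190.4 FPKM against 669, 795 and 1396 FPKM, in that same arrangement (log2 fold change -0.71, standard error 0.55, limma adjusted p 0.899). mt-Rnr2 was at 697, 2511 and 1805 FPKM against 741, 783 and 1404 FPKM, likewise (-0.65, standard error 0.50, limma adjusted p 0.899). Leaving out Wild type replicate 1 gave -1.31 and -1.19 for these genes, and leaving out Wild type replicate 2 gave -0.39 and -0.26. In limma 0 of 2 rRNAs in crypts had an unadjusted p under 0.05, against 5.85% of all genes.

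In tumors the rRNA share was 0.0206%, 0.0232% and 0.0293% in APCmin/+ and 0.0263%, 0.0323% and 0.0326% in APCmin/+;ieCtnnb1KO libraries. The difference of 0.00606 percentage points was positive, with APCmin/+ replicate 3 above the lowest knockout; as a share of summed FPKM it was 0.0121. mt-Rnr1 was at 116, 131 and 159.9 FPKM against 147, 171 and 186 FPKM, with that overlap (log2 fold change 0.31, standard error 0.15; limma, unadjusted p 0.0812, adjusted p 0.390). mt-Rnr2 was at 57.8, 64.3 and 84.7 FPKM against 78.2, 100.9 and 100.1 FPKM, again with APCmin/+ replicate 3 within the knockouts (0.44, standard error 0.17; limma, unadjusted p 0.0405, adjusted p 0.336). Under quantile normalization these were 0.12 and 0.28, and mt-Rnr1 was at 0.21 without APCmin/+ replicate 1. mt-Rnr1 exceeded mt-Rnr2 in 6 of 6 tumor libraries but in only 2 of 6 crypt libraries.

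Because the coding mean was lower and the rRNA mean higher in knockout tumors, the ratio between them was set out per library. rRNA fragments per 100 coding fragments were 1.23, 1.03 and 1.47 in APCmin/+ and 1.72, 1.87 and 2.30 in APCmin/+;ieCtnnb1KO tumors. The groups did not overlap (means 1.24 ± 0.217 and 1.96 ± 0.302, SD, n = 3 each), and the ratio was not tested. It was among the 8 of 18 ratios without overlap named above. Picking it for its opposite means favoured a separation of the groups, so it adds nothing to those means. In crypts the same ratio was 1.38, 3.20 and 3.28 in Wild type against 1.67, 2.02 and 2.34 in ieCtnnb1KO, with overlap. Whether rRNA was removed or messenger RNA selected before library construction is not given in the sources used here, and its part in the rRNA levels was not tested.

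tRNA genes were counted from few fragments. In crypts 11 of 22 averaged at least 10 fragments, and in tumors 6 did. mt-Tf was at 0 fragments in every crypt library, and in tumors 7 tRNAs were (mt-Tf, mt-Tv, mt-Ti, mt-Ta, mt-Td, mt-Tk and mt-Tg). For mt-Tf, 3 fragments would have read as 2.63 to 3.14 FPKM in crypts and 2.67 to 2.95 in tumors. A level below that floor cannot be told apart from absence. mt-Tp, the proline tRNA, stood 12.0 times above mt-Tc, the next tRNA, in crypts and 9.60 times in tumors, in 6 of 6 libraries of each. It made up 69.9% to 79.5% of tRNA fragments in crypts and 62.7% to 78.3% in tumors. The reference sequences of mt-Tp (MT:15356-15422, minus strand), mt-Tc (MT:5192-5257, minus strand), mt-Tl2 (MT:11671-11741, plus strand) and mt-Tf (MT:1-68, plus strand) are shown with the anticodon in capitals, for scale against a sequenced fragment.
mt-Tp: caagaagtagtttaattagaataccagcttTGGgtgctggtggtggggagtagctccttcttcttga
mt-Tc: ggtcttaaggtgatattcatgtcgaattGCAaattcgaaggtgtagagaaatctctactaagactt
mt-Tl2: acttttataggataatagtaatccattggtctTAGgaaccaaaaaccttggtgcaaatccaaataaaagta
mt-Tf: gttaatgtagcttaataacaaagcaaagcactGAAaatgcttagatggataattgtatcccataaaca
Fragments of such short genes may come from uncut precursors as well as from mature tRNAs, and the table cannot tell them apart.

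The tRNA share in crypts was 0.0283%, 0.0462% and 0.0445% in Wild type and 0.0271%, 0.0208% and 0.0387% in ieCtnnb1KO libraries. The groups overlapped through Wild type replicate 1 (difference -0.0108 percentage points; -0.250 as a share of summed FPKM). Of 18 tested tRNAs 7 had a positive and 11 a negative log2 fold change (median -0.11), and 1 of 18 had an unadjusted p under 0.05 in limma, against 5.85% of all genes. mt-Tp was at 3075, 5626 and 5283 FPKM against 2732, 2197 and 4798 FPKM, with ieCtnnb1KO replicate 3 above Wild type replicate 1 (-0.56, standard error 0.40, limma adjusted p 0.896). mt-Th, the histidine tRNA, was at 52.1, 108 and 144 FPKM against 50.4, 30.3 and 65.9 FPKM, with the same overlap (-0.996, standard error 0.42; limma, unadjusted p 0.0506). The other tRNAs of at least 10 fragments were mt-Tc (-0.49), mt-Tl2 (-0.66), mt-Ts2 (-0.57), mt-Tn (-0.12), mt-Ty (-0.02), mt-Tl1 (0.31), mt-Te (0.19), mt-Tw (0.59) and mt-Ti (0.32). Of these, mt-Tn, mt-Ty and mt-Te changed sign when 1 library was left out. The others ran from -0.92 to -0.24 (mt-Tc), -0.91 to -0.35 (mt-Tl2), -0.84 to -0.18 (mt-Ts2), 0.09 to 0.61 (mt-Tl1), 0.30 to 0.86 (mt-Tw) and 0.15 to 0.58 (mt-Ti), and mt-Tp from -0.88 to -0.32. The tRNA with the unadjusted p under 0.05 was mt-Ta, at 2, 3 and 2 fragments against 13, 10 and 2.

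In tumors the tRNA share was 0.00301%, 0.00448% and 0.00453% in APCmin/+ and 0.00397%, 0.00476% and 0.00302% in APCmin/+;ieCtnnb1KO libraries. The groups overlapped throughout (difference -8.93e-05 percentage points), and leaving out APCmin/+ replicate 2 or 3 or knockout replicate 3 turned the sign. Of 10 tested tRNAs 8 were positive (median 0.33), and 3 of 10 had an unadjusted p under 0.05 in limma, against 14.5% of all genes. mt-Ts2, a serine tRNA, was at 7.33, 14.4 and 12.5 FPKM against 20.01, 22.2 and 25.0 FPKM, from 7, 14 and 11 fragments against 19, 21 and 23. All knockouts lay above all controls (0.99, standard error 0.24; limma, unadjusted p 0.00484, adjusted p 0.269). mt-Tl2, a leucine tRNA, was at 33.1, 35.0 and 23.5 FPKM against 36.8, 41.3 and 57.8 FPKM, without overlap (0.55, standard error 0.21; limma, unadjusted p 0.0371, adjusted p 0.330). mt-Tl1, the remaining tRNA with an unadjusted p under 0.05, had 5, 6 and 1 fragments against 9, 9 and 7. mt-Tp was at 316, 513 and 505 FPKM against 407, 512 and 291 FPKM, with overlap (-0.14, limma adjusted p 0.827; 0.07 without APCmin/+;ieCtnnb1KO replicate 3). mt-Tc was at 40.2, 24.8 and 51.7 FPKM against 51.8, 58.6 and 37.9 FPKM, with overlap (0.38; 0.09 to 0.61 with 1 library left out). mt-Tn was at 25.2, 23.0 and 46.1 FPKM against 42.9, 27.2 and 28.0 FPKM, with overlap (0.09; -0.12 to 0.40). mt-Th was at 7.38, 18.1 and 8.98 FPKM against 10.2, 20.47 and 10.5 FPKM, with overlap (0.28; -0.04 without knockout replicate 2).

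The respiratory complexes combine mitochondrial and nuclear-encoded subunits, and these sets had opposite signs in crypts. There 68 of 80 tested nuclear-encoded subunits had a positive log2 fold change (median 0.26), as had 52.8% of all genes, against a median of -0.43 for the mitochondrial genes (0 under quantile normalization). By complex, 30 of 37 nuclear-encoded subunits of complex I, 4 of 4 of complex II, 7 of 9 of complex III, 11 of 13 of complex IV and 16 of 17 of the ATP synthase were positive. Limma gave an unadjusted p under 0.05 with a higher mean for 14, 2, 4, 2 and 6 of them and with a lower mean for 0, against 3.48% and 2.36% of all genes. Summed over complex I, they were at 1498, 1359 and 1859.6 FPKM in Wild type and 1826, 1926 and 1749.7 FPKM in ieCtnnb1KO crypts, with Wild type replicate 3 in the knockout range. The sums of complex IV overlapped too. Those of complexes II, III and V were higher without overlap, as were 6.79% of all genes. In tumors 76 of 80 were positive (median 0.26): 34 of 37, 4 of 4, 8 of 9, 13 of 13 and 17 of 17 for complexes I to V, against 51.3% of all genes. An unadjusted p under 0.05 in limma with a higher mean was given to 7, 0, 4, 6 and 2 of them and with a lower mean to 0, against 8.46% and 6.0% of all genes. Sums over complex I were 1456, 1284 and 1157 FPKM in APCmin/+ and 1626, 1370 and 1970 FPKM in APCmin/+;ieCtnnb1KO tumors, with knockout replicate 2 in the control range. Tumor sums of complexes II, IV and V overlapped too. Those of complex III were higher without overlap, as were 11.4% of all genes. In tumors the mitochondrial genes of complex I had a median of -0.18, mt-Cytb of complex III was at -0.15, the mitochondrial genes of complex IV had a median of 0.13 and those of the ATP synthase 0.66. The value of complex IV was that of mt-Co2. That of the ATP synthase lay between mt-Atp6 (0.21) and mt-Atp8 (1.12, on 4 to 20 fragments per library). Both mt-Co2 and mt-Atp6 changed sign when a library was left out. Over all alternative settings the median of the nuclear-encoded subunits stayed between 0.17 and 0.35 in crypts and 0.13 and 0.37 in tumors. Mitochondrial ribosomal proteins were positive for 68 of 77 genes in crypts (median 0.18) and 67 of 77 in tumors (0.16).

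**Figure D5:**
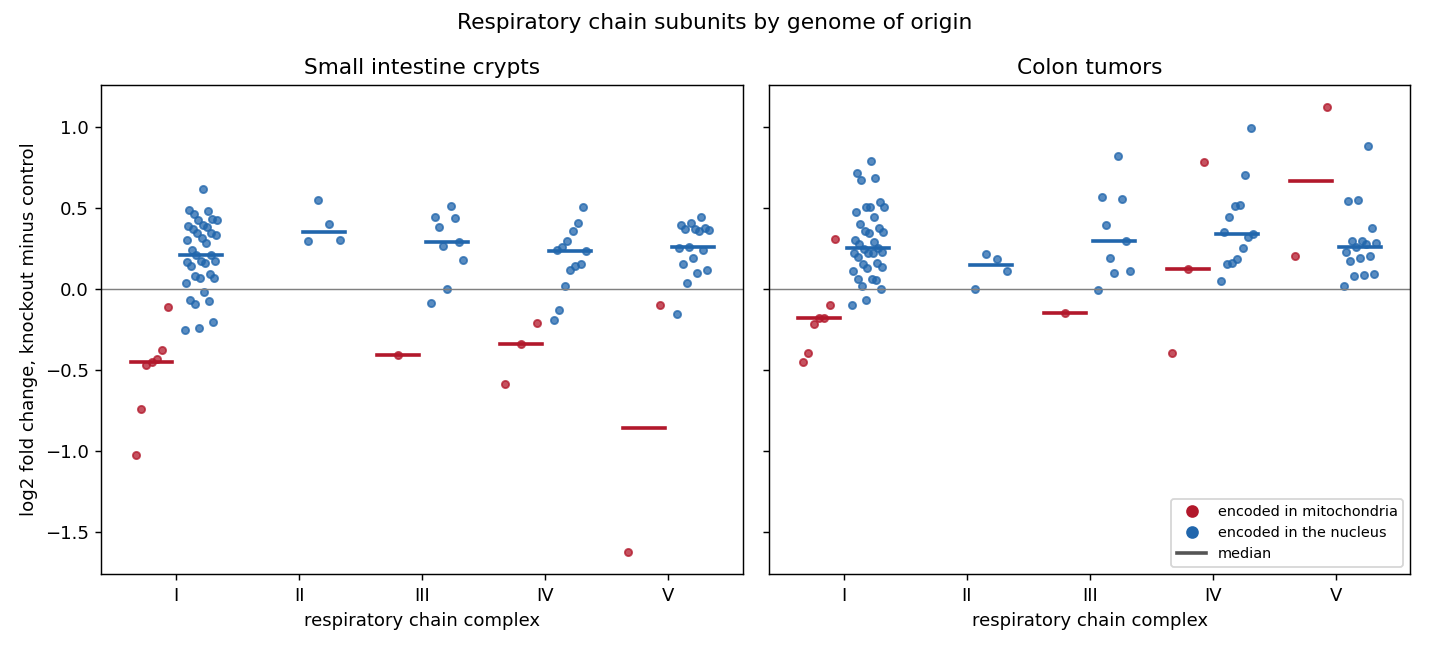
Log2 fold changes (y axis) of mitochondrial and nuclear-encoded subunits by respiratory complex, in crypts and tumors. Nuclear-encoded medians are positive in every complex (0.21 to 0.35 in crypts), while mitochondrial medians in crypts are negative.

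Genes that transcribe, replicate and process mitochondrial RNA showed small differences. In crypts 13 of 19 transcription and replication genes (median 0.07), 31 of 41 RNA processing genes (0.11) and 9 of 12 regulators of mitochondrial biogenesis (0.07) were positive. Polrmt, the mitochondrial RNA polymerase, was at 10.6, 8.57 and 6.22 FPKM in Wild type and 7.87, 10.6 and 7.90 FPKM in ieCtnnb1KO crypts, with overlap and a log2 fold change of 0.07 (-0.13 without Wild type replicate 3). Tfam, which activates its promoters, was at 17.4, 13.1 and 10.7 FPKM against 16.2, 15.5 and 14.1 FPKM (0.17, overlap; 0.02 to 0.35 with 1 library left out). Lrpprc, which stabilizes mitochondrial messenger RNAs, was at 20.7, 13.7 and 8.98 FPKM against 17.7, 18.8 and 18.1 FPKM (0.40, overlap; 0.11 to 0.69 with 1 library left out). The only gene of the 3 lists with an unadjusted p under 0.05 in limma, which 5.85% of all genes had, was Fastk, an RNA-binding regulator of mt-Nd6 RNA, at 14.9, 15.9 and 16.7 FPKM against 20.1, 18.1 and 19.1 FPKM. All its knockout values were the higher ones (0.26, standard error 0.11; limma, unadjusted p 0.0474, adjusted p 0.845).

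In tumors 15 of 19 transcription and replication genes (median -0.10), 26 of 41 RNA processing genes (-0.04) and 7 of 11 biogenesis regulators (-0.08) were negative. Polrmt was at 10.3, 10.8 and 11.2 FPKM in APCmin/+ and 10.7, 9.81 and 10.5 FPKM in APCmin/+;ieCtnnb1KO libraries, with overlap (-0.06). Tfam was at 9.005, 8.93 and 8.87 FPKM against 8.44, 7.92 and 8.38 FPKM, and Lrpprc at 8.66, 8.70 and 9.27 FPKM against 8.40, 8.36 and 7.72 FPKM. Both lay lower without overlap, each at -0.11. Esrra, a nuclear receptor that drives mitochondrial genes, was at 44.8, 39.3 and 33.9 FPKM against 52.1, 48.9 and 54.8 FPKM, without overlap (0.40, standard error 0.12; limma, unadjusted p 0.0121, adjusted p 0.286). Its coactivator gene Ppargc1a was at 3.86, 5.17 and 7.56 FPKM against 3.72, 2.61 and 3.48 FPKM, lower without overlap (-0.64, standard error 0.24, limma adjusted p 0.325; -0.85 to -0.41 with 1 library left out). Of the RNA processing genes, Rexo2 (0.49), Mrm2 (0.61) and Ptcd2 (0.32) were higher and Mtpap (-0.33), Trit1 (-0.39) and Nsun3 (-0.35) lower at an unadjusted p under 0.05 in limma, as was the nucleotide carrier gene Slc25a33 (-0.23). That is 3 of 41 processing genes in each direction, against 8.46% of all genes higher and 6.0% lower. Mtpap, the mitochondrial poly(A) polymerase, was at 11.3, 11.8 and 12.3 FPKM against 8.32, 10.2 and 9.51 FPKM, without overlap (limma adjusted p 0.295).

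Cell type markers were read beside these values, and none of those tested was called by limma in either tissue. In crypts all 7 Paneth cell markers were negative (median -0.56), with summed levels of 22878, 33726 and 63604 FPKM in Wild type and 25221, 22271 and 25256 FPKM in ieCtnnb1KO libraries, led by Defa24 (12578). All 7 enterocyte markers were positive (0.53), at 3099, 4633 and 9103 FPKM against 6956, 5150.5 and 7962 FPKM in sum, led by Fabp2 (2817). Wild type replicate 3 was the highest in both sums, whereas the coding share was highest in Wild type replicate 2. Of the remaining lists, 3 of 7 epithelial (-0.03), 3 of 4 stem cell (0.02), 1 of 6 goblet cell (-0.29), 1 of 6 enteroendocrine and tuft cell (-0.27), 1 of 7 immune (-0.27), 0 of 4 fibroblast and endothelial (-0.41) and 0 of 3 erythrocyte markers (-0.50) were positive. So were 2 of 3 colon epithelium markers (0.46), 1 of 10 immediate early and heat shock genes (-0.23) and 1 of 5 nuclear-retained and ribosomal RNA genes (-0.16). No smooth muscle marker was tested in crypts. At an unadjusted p under 0.05 in limma, 1 Paneth cell, 2 enteroendocrine and tuft cell and 1 fibroblast and endothelial markers were lower and 2 colon epithelium markers higher, against 2.36% and 3.48% of all genes. Their part in the mitochondrial values was not tested.

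In tumors all 6 goblet cell markers were positive (median 1.07), at 908, 818.6 and 818 FPKM in sum in APCmin/+ and 1488, 2046 and 1775 FPKM in APCmin/+;ieCtnnb1KO libraries, led by Tff3 (458). All 7 epithelial markers were positive (0.35) and lay higher without overlap, as did 11.4% of all genes, at 4172, 4206 and 3656 FPKM against 4931, 4798 and 5085 FPKM, led by Krt8 (1588). Of fibroblast and endothelial markers 7 of 8 were positive (0.43), at 526, 373 and 459.8 FPKM against 528, 624 and 569.6 FPKM, led by Vim (174). Erythrocyte markers (4 of 5, 0.17) varied widely between knockouts, at 680.2, 52.9 and 1115 FPKM in sum. Paneth cell (7 of 7, 0.61), colon epithelium (6 of 6, 0.28), enteroendocrine and tuft cell (3 of 3, 0.30), enterocyte (1 of 1, 0.82), immediate early and heat shock (8 of 10, 0.55) and nuclear-retained RNA lists (4 of 5, 0.34) were mostly positive. Immediate early and heat shock genes summed to 337, 301 and 363 FPKM in APCmin/+ and 364, 362 and 502 FPKM in APCmin/+;ieCtnnb1KO libraries. The nuclear-retained list summed to 232, 233 and 186 FPKM against 191, 188 and 306 FPKM, with its most abundant gene, Malat1, at -0.28. Knockout replicate 3, the highest in both sums, had the lowest coding share in tumors. Stem cell markers were negative (0 of 3, -0.09). Smooth muscle (3 of 6, 0.07) and immune markers (4 of 8, 0.01) had both signs. The neutrophil genes among the immune markers lay lower without overlap, as did 10.6% of all genes. Of all genes, 6.0% were lower at an unadjusted p under 0.05 in limma. S100a8 was at 66.8, 153 and 98.2 FPKM in APCmin/+ and 64.7, 31.2 and 63.2 FPKM in APCmin/+;ieCtnnb1KO libraries (-0.98, standard error 0.38; limma, unadjusted p 0.0383, adjusted p 0.331). S100a9 was at 112, 259.9 and 180.2 FPKM against 110.0, 51.8 and 111 FPKM (-1.01, standard error 0.40; limma, unadjusted p 0.0399, adjusted p 0.335). At an unadjusted p under 0.05 in limma, 6 goblet cell, 5 fibroblast and endothelial, 4 immediate early and heat shock, 2 epithelial, 1 colon epithelium and 1 smooth muscle markers were higher, against 8.46% of all genes. A change in the mix of cells and a change within epithelial cells cannot be told apart here, and the part of these lists in the mitochondrial values was not tested.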

How the data were processed

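RNA of 12 libraries (4 groups of 3) was made into libraries with random-hexamer first strands (NEBNext Ultra II RNA). The submitters' processing notes name cutadapt, HISAT2 on mm10, Cufflinks 2.2.1 and DESeq2, the methods name featureCounts for counting, and the authors deposited FPKM in 2 tables normalized separately. No sample column was left out.

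In each library the products of FPKM and gene length fell on multiples of 1 step (tolerance 0.01; 100% of values), which gave fragments, 14457896 to 16156712 per library, and shares with 95% Clopper-Pearson intervals and a floor of 3 fragments. Genes with a mean of at least 0.5 FPKM over the 6 libraries of a table were compared by limma 3.58.1 (R 4.3.3) with a variance trend on log2(FPKM + 0.5), 1 comparison per tissue, Benjamini-Hochberg adjusted over all tested genes at 0.05. The script was tested on simulated data. Nuclear copies were taken by position, as the genes listed within a preset window of chromosome 1. Each was aligned to the mitochondrial gene of best match and compared base by base with biopython 1.88. Shared 100-base windows of the reference transcripts were counted separately and did not define the copies. Other steps used Python 3.11.15, pandas 2.3.3, numpy 2.4.6, scipy 1.17.1 and matplotlib 3.10.9.

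Members and gene lists (transcription, RNA processing, biogenesis, nuclear-encoded subunits, mitochondrial ribosomal proteins, cell type markers, stress and RNA quality) were chosen with earlier results of these data known. Named genes are all coding and rRNA genes, the tRNAs of at least 10 fragments on average, the nuclear copies, Polrmt, Tfam, Lrpprc and Ppargc1a, and up to 6 machinery genes per direction at an unadjusted p under 0.05. mt-Ta, mt-Tl1, mt-Tf and mt-Tk, the chromosome 2 pseudogenes, S100a8, S100a9 and the lists' leading genes were named after their values were seen. The ratio of rRNA to coding fragments was likewise set out after the tumor means were seen.

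Alternatives were pseudocounts of 0.1 and 1, no filter or a mean of at least 1 FPKM, 3 rescalings, quantile normalization, no variance trend, the replicate number as a block, voom on recovered fragments, other denominators of the shares, and each library left out in turn.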

Additional observations from a re-analysis of the deposited data

Results flagged for a closer look

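mt-Atp8 stood out because every library moved one way in one tissue and the opposite way in the other. In ieCtnnb1KO crypts all 3 libraries lay below all Wild type libraries (log2 fold change -1.63), and in APCmin/+;ieCtnnb1KO tumors all 3 lay above all APCmin/+ libraries (1.12), 2.75 apart on the log2 scale. The difference between the tissues was not tested. The tumor values rest on 4 to 20 fragments per library, and the crypt groups lay close at their nearest libraries, 19.948 FPKM in Wild type replicate 1 and 19.892 FPKM in ieCtnnb1KO replicate 3.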

How the results depend on the processing

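Of 90 results recomputed under the alternatives, 80 concern single genes, of which 49 were reversed under no alternative run and 31 under at least 1, and 0 became called. mt-Tk, which the filter removes, was called without it in crypts (limma adjusted p 0.0235). This call rests on 1 fragment in each ieCtnnb1KO library and 0 in each Wild type library, and no conclusion is drawn from it. No scaling moved the median of all genes by over 0.1. The number of genes called by limma in crypts was 14 without the filter and 0 to 3 with a library left out. In tumors it was 27 without the filter, 1 without the variance trend and 0 to 0 with a library left out. Where leaving out a library left 2 in a group, the test rests on few samples. Same-numbered libraries correlated at -0.05, -0.12 and 0.04 in crypts and 0.05, -0.09 and 0.05 in tumors. Only tumor replicate 3 correlated best with its own number. No pairing by replicate number was seen in these values, but they cannot show that the design had none. With the replicate block limma called 0 genes in both tissues, with 732 and 1882 at an unadjusted p under 0.05, and the coding medians were again -0.43 and -0.15.

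The coding median in crypts was 0 under quantile normalization, which sets genes of the same top rank to 0 by construction, and -0.66 to -0.24 with a library left out, and in tumors it ran from -0.25 to -0.06. As shares of FPKM without length, the differences were -0.250 for tRNA in crypts, and -1.14 for coding, 0.0121 for rRNA and -0.0120 for tRNA genes in tumors. Over genes outside the copied stretch the coding difference was -0.146 in tumors and -1.51 in crypts. This alternative, and adding the copies, were chosen after seeing the data. With a library left out, share differences in crypts were -4.58 to -1.90 (coding), -0.289 to -0.0865 (rRNA) and -0.0165 to -0.00674 (tRNA), and in tumors -0.562 to -0.275, 0.00418 to 0.00852 and -0.000586 to 0.00036.

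Quantile normalization reversed mt-Nd1 (0.21), mt-Nd2 (0.14), mt-Atp6 (0.0879), mt-Nd4 (0.0716), mt-Nd6 (0.39) and mt-Cytb (0.23) in crypts and mt-Tn (-0.0196), mt-Co2 (-0.0232) and mt-Cytb (0.0945) in tumors, and rescaling to the same total reversed mt-Ty in crypts (0.00887). Leaving out libraries reversed, in crypts, mt-Tn (-0.56 to 0.17), mt-Ty (-0.29 to 0.13), mt-Co2 (-1.09 to 0.17), mt-Atp6 (-0.82 to 0.62), mt-Co3 (-0.91 to 0.39), mt-Nd6 (-0.35 to 0.22), mt-Te (-0.10 to 0.55), Gm29216 (-0.70 to 0.35), Gm28661 (-0.51 to 0.15), Gm10925 (-0.85 to 0.22), Gm28437 (-0.65 to 0.0451), Gm28438 (-0.59 to 0.23), Polrmt (-0.13 to 0.24) and Ppargc1a (-0.11 to 0.29). In tumors it reversed mt-Tn (-0.12 to 0.40), mt-Co2 (-0.13 to 0.35), mt-Atp6 (-0.14 to 0.61), mt-Nd3 (-0.12 to 0.58), mt-Nd4 (-0.22 to 0.0169), mt-Th (-0.0382 to 0.65), mt-Tp (-0.37 to 0.0718), Gm28661 (-0.18 to 0.65), Gm10925 (-0.00543 to 0.61), Gm28437 (-0.26 to 0.34), Gm10222 (-0.49 to 0.12) and Gm28439 (-0.38 to 0.48). The cause was not tested. In tumors mt-Atp8 and mt-Nd3 and many tRNAs rest on few fragments.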
